A study of Mus musculus with 4 samples.

Results

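The 10 genes described here encode the classical route by which mouse cells show peptides on MHC class I, and they were chosen by their function, with earlier results of these data known. They are the heavy chains H2-K1 and H2-D1, the light chain B2m, the peptide transporter subunits Tap1 and Tap2, the loading factor Tapbp, the immunoproteasome subunits Psmb8, Psmb9 and Psmb10, and the transactivator Nlrc5. All 10 of them, out of 54752 genes listed in the files, had enough counts to be tested. RNA was sequenced from naïve CD4+ T cells that had been isolated from spleen and polarized in vitro under T follicular helper (Tfh) conditions for 3 days. The Mek1/2-tKO group came from mice that were Map2k1 fl/fl and Map2k2 fl/fl and carried Cd4-Cre, in which Cre driven by the Cd4 promoter removes both floxed genes in T cells, and the WT group carried the label WT, with 2 libraries each. The floxed alleles were made on a C57BL/6 background, and the labels give no age. Both groups shared the same culture, with anti-CD3, anti-CD28, IL-6 and neutralizing antibodies to TGF-β, IL-4, IL-2 and IFN-γ, and viable cells were sorted again before RNA extraction. The labels do not say whether the 2 libraries of a genotype came from separate mice, so the p-values measure the spread between these libraries, which may be technical.

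MHC class I displays peptides from proteins made inside the cell to CD8+ T cells. The proteasome cuts the proteins, TAP1 and TAP2 carry the peptides into the endoplasmic reticulum, tapasin (Tapbp) holds the empty class I molecule next to the transporter, and the heavy chain folds with β2-microglobulin (B2m) around the peptide. In immune cells, and in other cells after interferon, the subunits PSMB8, PSMB9 and PSMB10 take the place of the catalytic subunits PSMB5, PSMB6 and PSMB7 of the 20S core. NLRC5 has no DNA-binding domain of its own and acts on class I promoters through factors bound at the W/S, X1, X2 and Y boxes.

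The libraries held 16330802 to 18931090 counts, and mitochondrial genes took 1.62 and 1.56% of them in WT and 2.24 and 1.99% in Mek1/2-tKO. Map2k1 had 182 and 187 CPM (each count relative to the library's total, scaled by edgeR's TMM method) in the WT libraries and 98.0 and 105 CPM in the Mek1/2-tKO libraries, a log2 fold change of -0.86. Map2k2 had 155 and 165 CPM in WT and 172 and 182 CPM in Mek1/2-tKO, which did not pass the test (log2 fold change 0.15, edgeR quasi-likelihood adjusted p = 0.126), and a count over a whole gene cannot tell a transcript without its floxed exons from a complete one. The markers of the labelled cell type went partly against the label in Mek1/2-tKO, where 5 of 8 T-cell markers (62.5%) were lower, beside 16.4% of all tested genes. Cd3d and Cd3g were not called (log2 fold changes 0.20 and 0.24). The summed CPM of the 8 T-cell markers was 1957 and 1990 in WT and 1744 and 1655 in Mek1/2-tKO. Cd4 itself stood at 297 and 289 CPM in WT and at 18.8 and 25.1 CPM in Mek1/2-tKO. All 10 B-lineage, all 8 NK and gamma-delta T-cell and both CD8 marker genes were higher in Mek1/2-tKO, beside 19.3% of all tested genes. The summed CPM of the 10 B-lineage markers was 1271 and 1248 in WT and 6573 and 6513 in Mek1/2-tKO. That of the 8 NK and gamma-delta T-cell markers was 82.6 and 85.1 in WT and 668 and 621 in Mek1/2-tKO. Thy1 was higher by 0.83 on the log2 scale, and the largest rises of the other lists were those of Fcrla (6.17), Trdc (5.12) and Cd8a (2.06). Cd8a and Cd8b1 together had 67.4 and 59.3 CPM in WT and 238 and 214 CPM in Mek1/2-tKO. The 8 myeloid markers, of which 6 were tested and all 6 were higher, had a summed CPM of 3.23 and 3.16 (WT) against 31.3 and 25.3 (Mek1/2-tKO), and Adgre1 and S100a8 had 0 counts in both WT libraries. In bulk RNA, fewer cells of a type and less RNA per cell cannot be told apart.

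The promoter sequences of the members were searched for the X2 and Y boxes, the part of the NLRC5-dependent module that can be searched by exact letters. RefSeq starts on GRCm38.p6 were found for 8 of the 10 genes (all but Tap2 and Nlrc5), and the 250 bases before each start were searched on both strands. In H2-K1, H2-D1 and B2m, the letters TGACG (the CRE core of the X2 box) faced ATTGG (the Y box CCAAT on the other strand) across exactly 20 bases. This layout, with a gap of 10 to 30 bases allowed, was chosen with the sequences in view and stood in 211 of 32851 RefSeq promoters, or 0.642%, while TGACG alone stood in 17.8% and CCAAT alone in 33.8% of them. The stretches are shown because they are what the 3 genes have in common, each on its gene's strand with both boxes in capitals:
H2-K1, chr17:34000359-34000388, minus strand: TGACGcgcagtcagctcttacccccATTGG
H2-D1, chr17:35262993-35263022, plus strand: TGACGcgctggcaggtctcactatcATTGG
B2m, chr2:122147609-122147638, plus strand: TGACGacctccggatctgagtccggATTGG
H2-M3, a non-classical heavy chain shown for comparison, chr17:37270188-37270217, plus strand: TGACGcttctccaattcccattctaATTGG

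The stretch began 55 bases before the start of H2-K1, 101 bases before that of H2-D1 and 78 bases before that of B2m. In H2-D1 it lies inside an exon of the deposited annotation, whose gene begins upstream of the RefSeq start, and H2-K1 has 2 RefSeq starts, of which the other lies 41 bases from the first base of the stretch. Between the capitals the 4 sequences differ. The same pair of letters was found at a gap of 19 bases in H2-Q7 and of 21 bases in the class II gene H2-Aa, both of which rose. It also stood in Jak1 at a gap of 18 bases and in the 20S subunit gene Psma1 at a gap of 29 bases, genes outside the MHC whose log2 fold changes of -0.16 and 0.22 were not called. It was not found in the windows of Tap1, Psmb9, Psmb8, Psmb10 or Tapbp, which says only that these letters are not in these windows. Psmb9 and Psmb10 rose without it, while Tap1, Psmb8 and Tapbp were not called. Among other heavy chains with a searched window but without the pair, H2-Q4, H2-Q6, H2-T22 and H2-T23 rose (log2 fold changes 1.07, 1.04, 0.59 and 0.96). H2-M2 and Fcgrt, with few or no counts in WT, were also called higher, while H2-Q2, H2-Q10 and Mr1 were not called. Whether the pair goes with a rise was not tested.

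The windows of H2-K1, H2-D1 and B2m also each held the IRF core of the interferon-stimulated response element (AANNGAAA, in 21.3% of all promoters) and a match to the NF-kappaB consensus (in 7.25%). The window of B2m shows the order of the motifs, with every match in capitals: the IRF core AACTGAAA, the NF-kappaB match on the other strand, and the X2 and Y letters.
B2m, chr2:122147437-122147686, plus strand: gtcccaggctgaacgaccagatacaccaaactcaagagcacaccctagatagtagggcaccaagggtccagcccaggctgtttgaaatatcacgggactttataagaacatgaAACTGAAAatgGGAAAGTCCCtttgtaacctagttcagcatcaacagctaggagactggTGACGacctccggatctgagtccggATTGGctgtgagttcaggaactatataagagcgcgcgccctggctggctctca
H2-K1, chr17:34000334-34000583, minus strand: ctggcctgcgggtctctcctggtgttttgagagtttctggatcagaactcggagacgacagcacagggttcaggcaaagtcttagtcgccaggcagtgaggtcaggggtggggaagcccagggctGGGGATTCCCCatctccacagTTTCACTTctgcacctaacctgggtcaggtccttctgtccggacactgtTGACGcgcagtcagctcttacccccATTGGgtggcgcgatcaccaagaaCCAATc

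In H2-K1 the NF-kappaB match lies before the IRF core, which reads TTTCACTT on the gene's strand, and a second CCAAT stands next to the start. A gamma-activated site (TTCNNNGAA, in 7.02% of promoters) was found among the members in Psmb8 alone, 97 to 89 bases before its RefSeq start. That start (chr17:34198195) lies inside the gene of the deposited annotation, which begins at chr17:34197721, and so does the site. The windows of Tapbp, Psmb9 and Psmb10 also overlap exons of these genes in that annotation. The divergent genes Tap1 and Psmb9 have overlapping windows, and the same TGACG match and the same CCAAT match lie in both. The window of Tapbp held 2 CCAAT matches, and that of Psmb10 held none of the motifs searched.

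Of the 10 members, 5 rose in Mek1/2-tKO cells and 0 fell, where a call needed a Benjamini-Hochberg adjusted p below 0.05 over 14330 genes in edgeR's quasi-likelihood test, and a change of 1.5-fold or more. Over all tested genes 19.3% were higher and 16.4% were lower by the same rule. The members that rose were both heavy chains, B2m, Psmb9 and Psmb10. Tap1, Tap2, Tapbp, Psmb8 and Nlrc5 did not pass both thresholds. The median log2 fold change of the 10 genes was 0.50, beside 0.02 over all tested genes.

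H2-K1 (ENSMUSG00000061232.15, chr17:33996017-34000333, minus strand), one of the classical heavy chains of this strain, had 2164 and 2238 CPM in the WT libraries and 3896 and 3922 CPM in the Mek1/2-tKO libraries. Both Mek1/2-tKO libraries lay above both WT libraries. Its log2 fold change was 0.83 (standard error, SE, 0.08), or 1.78-fold, with an adjusted p of 8.07e-07 from edgeR's quasi-likelihood test.

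H2-D1 (ENSMUSG00000073411.11, chr17:35262730-35267499, plus strand), the other classical heavy chain, had 1708 and 1778 CPM in WT and 3085 and 3111 CPM in Mek1/2-tKO. The groups did not overlap here either. Its log2 fold change was again 0.83 (SE 0.07 and edgeR quasi-likelihood adjusted p = 7.52e-07). The heavy chains resemble each other, and of all 100-base windows of their transcripts 0.957% in H2-K1 and 3.59% in H2-D1 also occur in other genes.

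B2m (ENSMUSG00000060802.8, chr2:122147686-122153083, plus strand), the light chain that every class I heavy chain needs, had 1078 and 1053 CPM in WT and 2800 and 2321 CPM in Mek1/2-tKO. The Mek1/2-tKO libraries were both higher than the WT libraries but differed from each other more than the WT libraries did. Its log2 fold change of 1.26 (SE 0.09, or 2.40-fold, edgeR quasi-likelihood adjusted p = 8.32e-08) lay between 1.12 and 1.39 when each library was left out in turn.

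**Figure D1:**
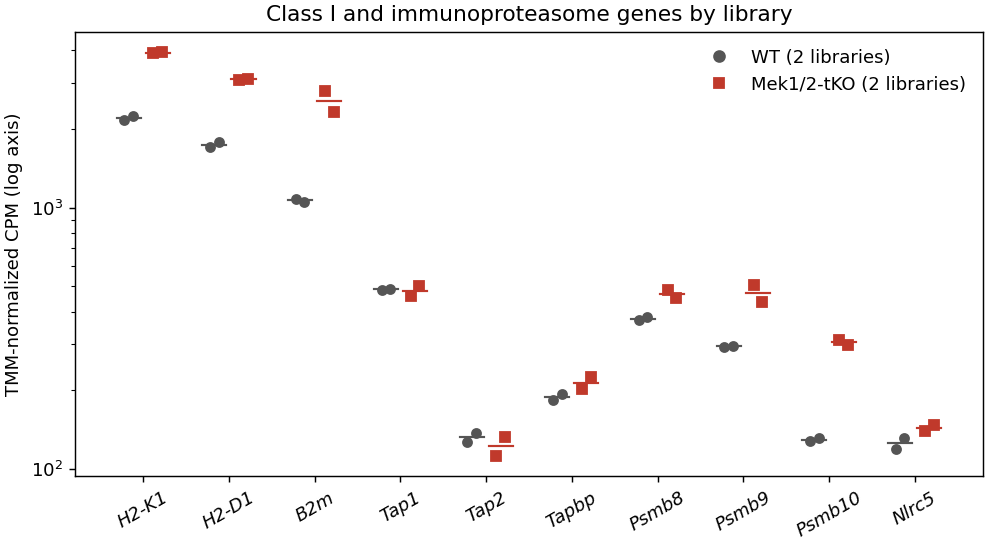
TMM-scaled CPM of the 10 members on a log axis, with 1 point per library and a line at the mean of each genotype. The Mek1/2-tKO points of H2-K1, H2-D1, B2m, Psmb9 and Psmb10 lie well above the WT points, while the points of Tap1 (458 to 503 CPM) and Tap2 (112 to 138 CPM) overlap.

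Neither gene of the peptide transporter passed the test. Tap1 (ENSMUSG00000037321.17, chr17:34187553-34197225, plus strand), which encodes one subunit of the peptide pump, had 483 and 490 CPM in WT and 458 and 503 CPM in Mek1/2-tKO. Its WT values lay inside the range of the Mek1/2-tKO values, and its log2 fold change was -0.02 (SE 0.08 and edgeR quasi-likelihood adjusted p = 0.86). Tap2 (ENSMUSG00000024339.12, chr17:34203527-34216321, plus strand), the other subunit, had 127 and 138 CPM in WT and 112 and 132 CPM in Mek1/2-tKO. These groups overlapped as well, with a log2 fold change of -0.11 (SE 0.10 and edgeR quasi-likelihood adjusted p = 0.343). Other genes share 18.5% of the exon bases of Tap2 and 3.87% of those of Tap1, and the sources used here do not say whether the counting used the strand.

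Tapbp (ENSMUSG00000024308.15, chr17:33915899-33929292, plus strand), which encodes tapasin, had 184 and 194 CPM in WT and 203 and 225 CPM in Mek1/2-tKO. The Mek1/2-tKO values were slightly higher, but the log2 fold change of 0.18 (SE 0.08 and edgeR quasi-likelihood adjusted p = 0.0734) did not pass, and other genes share 29.0% of its exon bases.

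The 3 immunoproteasome subunits differed from one another. Psmb10 (ENSMUSG00000031897.9, chr8:105935735-105938444, minus strand), the counterpart of Psmb7, had 128 and 131 CPM in WT and 312 and 297 CPM in Mek1/2-tKO. Every Mek1/2-tKO library was well above both WT libraries, a 2.35-fold difference with a log2 fold change of 1.23 (SE 0.08 and edgeR quasi-likelihood adjusted p = 1.66e-08). Psmb9 (ENSMUSG00000096727.2, chr17:34181988-34187764, minus strand), the counterpart of Psmb6, had 294 and 295 CPM in WT and 505 and 437 CPM in Mek1/2-tKO. The groups did not overlap, and its log2 fold change was 0.68 (SE 0.08 and edgeR quasi-likelihood adjusted p = 1.15e-05). It was 0.57 without Mek1/2-tKO replicate 1, which is under the fold change threshold, so that 4 members remained called. Psmb8 (ENSMUSG00000024338.14, chr17:34197721-34201454, plus strand), the counterpart of Psmb5, had 372 and 380 CPM in WT and 485 and 451 CPM in Mek1/2-tKO. Its libraries did not overlap and its adjusted p was 0.00261 in edgeR's quasi-likelihood test, but its log2 fold change of 0.32 (SE 0.07) was under the fold change threshold.

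Nlrc5 (ENSMUSG00000074151.13, chr8:94434356-94527272, plus strand), the class I transactivator, had 120 and 132 CPM in WT and 140 and 147 CPM in Mek1/2-tKO. The Mek1/2-tKO values were higher by a small step, and the log2 fold change of 0.19 (SE 0.08 and edgeR quasi-likelihood adjusted p = 0.0727) did not pass. This gene has 8493 exon bases, the most of the 10.

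**Figure D2:**
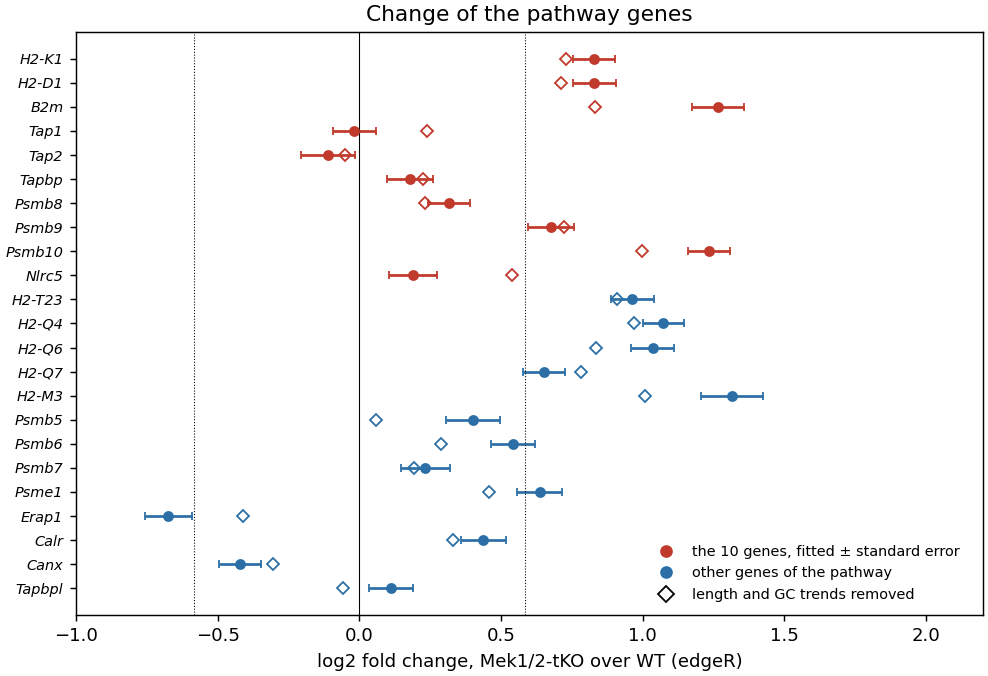
Log2 fold change (Mek1/2-tKO over WT, edgeR) of the 10 members and of a selection of other genes of the pathway, with bars of 1 SE, dotted lines at a 1.5-fold change either way, and open diamonds for the values after the length and GC trends were taken out. The other heavy chains drawn all rose, and tested ones that were not called, such as H2-Q10 and Mr1, are left out. Uggt1 and Psme4, which fell, are not drawn either. B2m at 1.26 and Psmb10 at 1.23 lie above the other members, and Tap1 at -0.02 and Tap2 at -0.11 below them.

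Compared per length, as CPM per kilobase of exon, the light chain was the most abundant member in both genotypes. In WT it had 1239 ± 19.98 (SD, n = 2 here and for the other values), followed by H2-K1 with 844 ± 20.2 and H2-D1 with 676 ± 19.2. Psmb8 stood at 138 ± 2.11, Tap1 at 88.8 ± 0.946, Psmb9 at 80.5 ± 0.295 and Psmb10 at 76.0 ± 1.40. Tapbp had 52.1 ± 1.89, Tap2 had 34.9 ± 2.03 and Nlrc5 had 14.8 ± 1.00 CPM per kilobase. In Mek1/2-tKO, B2m reached 2977 ± 393 CPM per kilobase, H2-K1 1499 ± 7.14 and H2-D1 1201 ± 7.13. Psmb10 moved up to 179 ± 6.29, beside 171 ± 8.74 for Psmb8, and these neighbours did not differ beyond their spread. Tap1 stayed at 87.7 ± 5.88 and Nlrc5 at 16.9 ± 0.578 CPM per kilobase.

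Ratios within a library do not depend on how libraries are scaled to each other, and they show the balance between parts that work together. With 2 libraries on each side the smallest two-sided p of an exact permutation test is 0.333, so these ratios are given as values. The ratio of H2-K1 to H2-D1, in counts per kilobase, was 1.25 and 1.24 in WT and 1.25 and 1.25 in Mek1/2-tKO (log2 difference -0.00). Both classical heavy chains thus had the same proportion to each other in all 4 libraries. The ratio of both heavy chains together to B2m was 1.19 and 1.26 in WT and 0.826 and 1.00 in Mek1/2-tKO. The ratio was lower in both Mek1/2-tKO libraries, by a log2 difference of -0.43 (exact permutation test, two-sided p = 0.333). B2m has far fewer exon bases than the heavy chains, and the log2 fold changes after removal of the trends on exon length and GC content, described further on, lay closer together, at 0.83 for B2m, 0.73 for H2-K1 and 0.71 for H2-D1.

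Among the catalytic subunits, Psmb10 to Psmb7 was 1.40 and 1.53 in WT and 2.78 and 3.08 in Mek1/2-tKO, a ratio 2.00 times as high (exact permutation test, two-sided p = 0.333). Psmb9 to Psmb6 was 0.609 and 0.600 in WT and 0.672 and 0.654 in Mek1/2-tKO, a small log2 difference of 0.13. Psmb8 to Psmb5 was 1.01 and 0.991 in WT and 0.888 and 1.01 in Mek1/2-tKO, where the groups overlapped (exact permutation test, two-sided p = 0.667). The Psmb10 pair had the largest log2 difference of the 3 pairs (1.00), and the sum of the 3 immunoproteasome subunits over the sum of their counterparts had a log2 difference of 0.27. With the same trends taken out, the log2 fold change was 1.00 for Psmb10 and 0.19 for Psmb7, 0.72 for Psmb9 and 0.29 for Psmb6, and 0.23 for Psmb8 and 0.06 for Psmb5, so that the Psmb9 pair lay further apart than in the ratio.

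**Figure D3:**
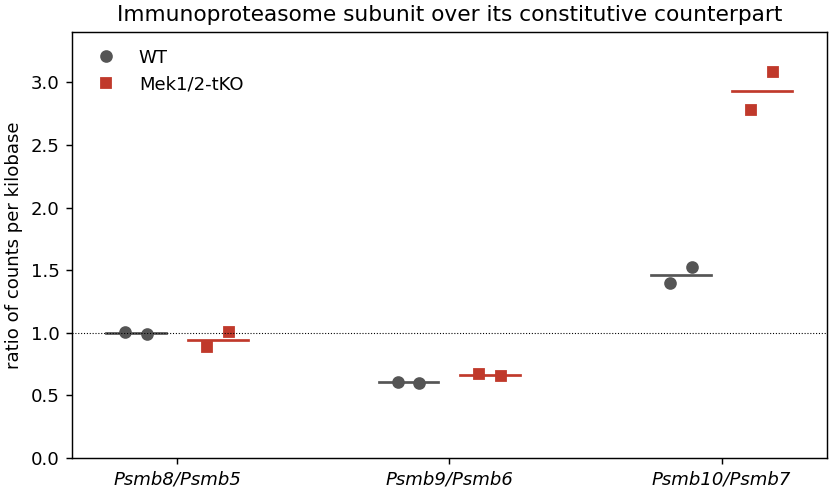
Ratio of counts per kilobase of each immunoproteasome subunit to its constitutive counterpart, with 1 point per library, a line at the mean of each genotype and a dotted line at 1. Psmb10/Psmb7 goes from 1.40 and 1.53 in WT to 2.78 and 3.08 in Mek1/2-tKO, while the points of Psmb8/Psmb5 overlap.

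The constitutive counterparts did not pass the fold change threshold. Psmb5, which carries the chymotrypsin-like activity, had a log2 fold change of 0.40 (edgeR quasi-likelihood adjusted p = 0.00305). Psmb6 had 0.54 (adjusted p = 5.72e-05) and Psmb7 had 0.23 (adjusted p = 0.0354, same test). Of all 14 subunits of the constitutive 20S core, 0 were called in either direction, beside 19.3% higher and 16.4% lower of all tested genes. Another 10 were higher by the adjusted p but under the fold change threshold, as were 1215 of all 14330 tested genes. The median log2 fold change of the 14 subunits was 0.36, and 0.12 with the length and GC trends taken out.

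Of 9 proteasome activators and assembly factors, 2 (22.2%) rose and 1 (11.1%) fell, beside 19.3% and 16.4% of all tested genes. Psme1, a subunit of the interferon-induced PA28αβ cap, had 387 and 382 CPM in WT and 633 and 563 CPM in Mek1/2-tKO, a log2 fold change of 0.64 (SE 0.08 and edgeR quasi-likelihood adjusted p = 1.42e-05). Its log2 fold change was 0.55, under the fold change threshold, without Mek1/2-tKO replicate 1 and also with scaling by library size alone. Its partner Psme2 had 7.595 and 7.52 CPM in WT and 13.5 and 15.1 CPM in Mek1/2-tKO, a log2 fold change of 0.92, but 18.4% of its 100-base windows also occur in Psme2b, so its level is uncertain. Psme4, the nuclear activator PA200, had a log2 fold change of -0.94 and was the gene that fell.

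Of 18 other class I heavy chain genes, 15 were tested, and 11 of these (73.3%) rose and 0 fell, beside 19.3% and 16.4% of all tested genes. Their median log2 fold change was 0.96. The count of those that rose was 8 with scaling by library size alone. It was 9 with DESeq2, without a filter, and with the length and GC trends taken out. H2-T23, the ligand of the NKG2A receptor, had 472 and 487 CPM in WT and 968 and 903 CPM in Mek1/2-tKO, with a log2 fold change of 0.96. H2-M3, which presents formylated peptides and whose X2 and Y letters are shown above, had 34.3 and 41.0 CPM in WT and 96.0 and 91.5 CPM in Mek1/2-tKO, a log2 fold change of 1.32. Cd1d1, a lipid-presenting molecule that B cells also carry, had the largest rise among those whose log2 CPM averaged 3 or more, from 1.69 and 1.45 CPM to 17.6 and 20.8 CPM (log2 fold change 3.60). H2-T23 and H2-M3 were named after their values were seen. Several of these genes share stretches of sequence, and 12.0% of the windows of H2-Q7 and 10.8% of those of H2-Q6 occur in other genes.

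Of 9 genes for peptide trimming and loading, 0 rose and 2 (22.2%) fell, a share near the 16.4% of all tested genes that were lower. Erap1, the aminopeptidase that trims peptides in the endoplasmic reticulum, had 165 and 156 CPM in WT and 101 and 99.7 CPM in Mek1/2-tKO, a log2 fold change of -0.67 (edgeR quasi-likelihood adjusted p = 1.27e-05). Uggt1, a folding sensor, had a log2 fold change of -0.81. The median of the 9 genes was -0.33. With the length and GC trends taken out, the median was -0.06 and neither of the 2 genes was past the fold change threshold.

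Among 21 regulators, 12 (57.1%) rose and 2 (9.52%) fell, beside 19.3% and 16.4% of all tested genes, with a median of 0.64. With scaling by library size alone, 9 rose. The 2 that fell were Jak2 and Nfkb1. The log2 fold change of Nfkb1 was -0.97, and -0.54, under the fold change threshold, with the length and GC trends taken out. Ifng, which encodes interferon gamma, had 127 and 121 CPM in WT and 2054 and 1773 CPM in Mek1/2-tKO, a log2 fold change of 3.95, and the culture contained an antibody against the protein. Irf1, a transcription factor of the interferon response, had 233 and 232 CPM in WT and 465 and 460 CPM in Mek1/2-tKO (log2 fold change 0.99). Rfx5, a subunit of the factor that binds the X box, had a log2 fold change of 0.67, and Ciita, the class II counterpart of Nlrc5, had 1.89. Jak2, a kinase at the interferon gamma receptor, had the largest fall, from 296 and 289 CPM to 98.9 and 101 CPM (log2 fold change -1.54). Exons of other genes share 25.9% of the bases of Ifng and 26.8% of those of Rfx5.

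All 6 MHC class II genes rose, beside 19.3% of all tested genes, with a median log2 fold change of 2.68 and with H2-Aa highest at 3.07. Their summed CPM was 1631 and 1638 in WT and 11300.2 and 11132 in Mek1/2-tKO. These genes are expressed strongly by B cells, as are class I genes, and the B-lineage markers were higher in the same 2 libraries as the members. The part of a different cell make-up in the members' values was not tested.

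Most of the members sit in the MHC on chromosome 17. In the stretch from Tapbp to H2-Eb2 (chr17:33915899-34340229, 424 kb), 31 genes were tested, and 15 rose and 0 fell. Over all tested genes 19.3% rose and 16.4% fell. The median log2 fold change of the stretch was 0.61. The 9 class II genes of the stretch all rose, by 2.06 to 4.07 on the log2 scale. Of the 15 genes there of neither class, 3 rose, and ENSMUSG00000092222.1 and Gm20513 among them averaged a log2 CPM under 1. The 6 members in it lay between -0.11 and 0.83, and 2 of them, H2-K1 and Psmb9, rose. Tap1 and Psmb9 share a divergent promoter and Psmb8 lies next to Tap1. The log2 fold changes were 0.68 for Psmb9, -0.02 for Tap1 and 0.32 for Psmb8. With the trends on exon length and GC content taken out, described further on, they were 0.72, 0.24 and 0.23, so that Tap1 and Psmb8 lay close together.

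**Figure D4:**
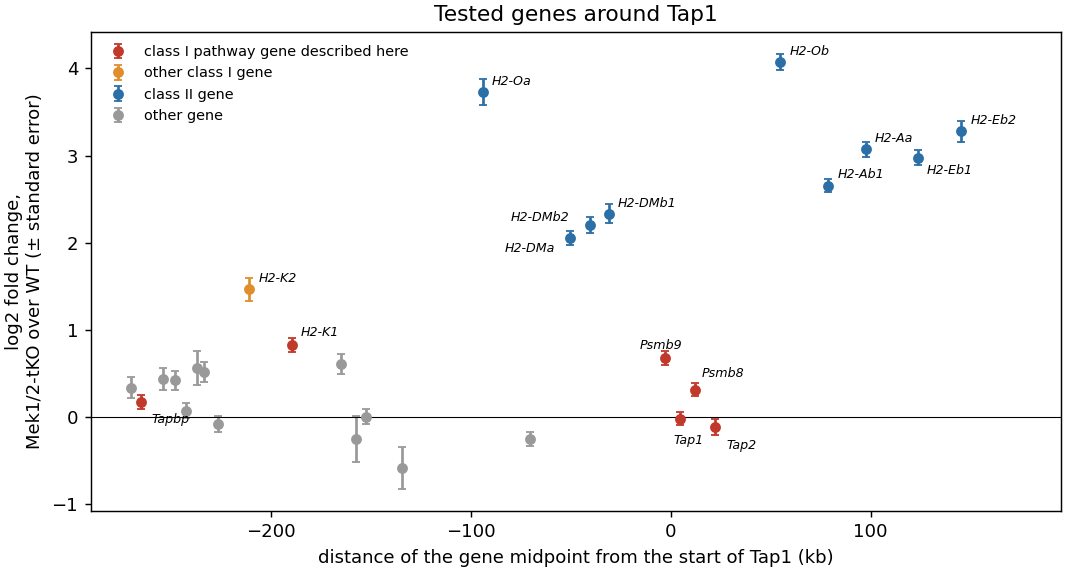
Log2 fold change (bars of 1 SE) of tested genes against the distance of the gene midpoint from the start of Tap1 in kilobases, with members, another class I gene, class II genes and other genes in separate colours and without 3 genes whose log2 CPM averaged under 1. The class II genes lie at 2.06 and above, and Tap1, Tap2, Psmb8 and Tapbp between -0.11 and 0.32.

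The log2 fold change moved with exon length over all tested genes. The median was 0.47 in the 3584 genes with the shortest exons in sum (12 to 1882 bases) and -0.36 in the 3583 with the longest (6032 to 123179 bases), and 34.2% and 8.88% of them were higher. This bears on the members, which run from B2m with 860 to Nlrc5 with 8493 exon bases. With lowess trends on exon length and GC content taken out, the log2 fold change of B2m was 0.83, that of H2-K1 0.73, of H2-D1 0.71, of Psmb9 0.72 and of Psmb10 1.00. Nlrc5 then had 0.54, Tap1 0.24 and Tap2 -0.05. The same 5 members were above the fold change threshold, and B2m was at 0.83 in place of 1.26. The cause of the trend was not tested.

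**Figure D5:**
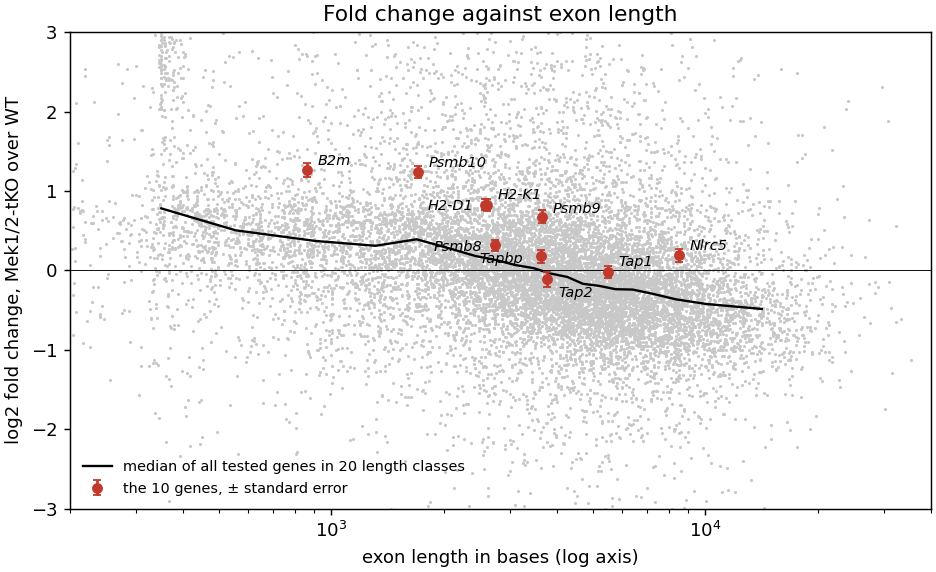
Log2 fold change of tested genes (grey) against exon length in bases on a log axis, with the 10 members (red, bars of 1 SE) and a line through the medians of 20 length classes. The line falls from above 0 for short genes to below 0 for long genes, and 648 genes outside the axes are not drawn.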

How the data were processed

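RNA of 2 WT and 2 Mek1/2-tKO cultures was measured by poly(A) RNA-seq. The authors trimmed reads with Trimmomatic 0.36, mapped them to GRCm38 with a mapper written as STRA, and deposited raw counts of uniquely mapped reads per gene from featureCounts (Subread 1.5.1), without normalization. The annotation release and strand setting are not given in the sources used here. Genes were named by the deposited Ensembl identifiers, of which 54723 of 54752 matched a symbol. For the comparison, edgeR (version 4.0.16, R 4.3.3) filtered genes by filterByExpr, scaled libraries by TMM and fitted genotype as the only term by robust quasi-likelihood, with Benjamini-Hochberg adjustment. Calls needed a change of 1.5-fold or more and an adjusted p below 0.05. The common dispersion came to 0.00842. Between replicates the counts differed beyond sampling noise (chi-square per gene of 4.07 for WT, 10.1 for Mek1/2-tKO). A count of 0 allows up to 3 counts, which covers counting error only.

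The members and all lists were chosen with earlier results of these data known. Genes given by name were the members, Psmb5 to Psmb7, Psme1, Psme2, Irf1, Rfx5, Ciita, Ifng, Erap1 and, in each further list, the called gene with the largest rise and the largest fall among those whose log2 CPM averaged 3 or more. Further genes, such as Nfkb1 and H2-Q10, were named with their values in view. Lists were counted, not tested, and 1 regulator that the rule names is not reported here. Promoters and starts came from RefSeq (GRCm38.p6). Exon overlap used the deposited coordinates, and shared 100-base windows used GENCODE transcripts. The comparison was repeated with a replicate block, with each library left out, with a likelihood-ratio test, with DESeq2 (version 1.42.0), with its size factors or only library sizes as scaling, without a filter, and with a minimum of 10 counts per library. Lowess trends (span 0.3, statsmodels 0.14.6) on exon length and GC content were also taken out of the fold changes, which was chosen after seeing the data. Calls with the trends taken out kept the adjusted p of the main fit, so only the fold change could move them. Python 3.11.15, pandas 2.3.3, scipy 1.17.1 and matplotlib 3.10.9 were used for tables and figures.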

Additional observations from a re-analysis of the deposited data

How the results depend on the processing

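The count of higher members was 5 under DESeq2, the likelihood-ratio test, both other scalings, both other filters and with the length and GC trends taken out, and 4 to 5 when each library was left out. No result changed sign past its threshold. When each library was left out in turn, the count of lower other heavy chains ranged from 0 to 1 (1 without Mek1/2-tKO replicate 1), that of higher proteasome activators and assembly factors from 1 (without Mek1/2-tKO replicate 1) to 3 (without WT replicate 2), and that of higher constitutive 20S subunits from 0 to 2 (without Mek1/2-tKO replicate 2, where Psmb6 was 0.62). Scaling by library size alone left 1 higher activator in place of 2, with Psme1 at 0.55, and Rfx5 fell under the fold threshold at 0.58. With the length and GC trends taken out, 0 trimming and loading genes were lower in place of 2 (Erap1 at -0.41), 1 regulator was lower in place of 2 and 1 constitutive 20S subunit was higher in place of 0. The cause was not tested. Over all genes, library size alone gave 2388 higher and 2848 lower, in place of 2768 and 2355, and DESeq2 gave 2455 and 2139.

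Libraries of both genotypes share replicate numbers, and the deviations of same-numbered libraries correlated at -0.03 over genes. With 2 libraries in each genotype this value cannot tell whether same-numbered libraries shared a batch, which the labels do not state. The replicate block gave 5 higher members and 2652 higher and 2300 lower genes.

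With 2 libraries in each genotype, and 1 in a genotype where a library is left out and taken to vary like the other genotype, the adjusted p rests on a variance model fitted across genes.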

Other observations

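Psme1 and Psme3 encode alternative PA28 caps of the proteasome, one induced by interferon and one nuclear. Their ratio in counts per kilobase, chosen after the values were seen, was 1.24 and 1.31 in WT and 2.65 and 2.43 in Mek1/2-tKO, and the groups did not overlap (exact permutation test, two-sided p = 0.333, the smallest this design can give). Psmb9 to Tap1, the pair that shares a divergent promoter, was 0.911 and 0.902 in WT and 1.65 and 1.3004 in Mek1/2-tKO, also chosen after the values were seen. Psmb8 to Tap2 was 4.06 and 3.82 in WT and 5.98 and 4.72 in Mek1/2-tKO, and Tap1 to Tap2 differed by 0.10 on the log2 scale with overlapping groups. H2-K2, next to H2-K1 on chromosome 17, had a log2 fold change of 1.47.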
